A study of Mus musculus with 12 samples.

Results

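The liver builds fatty acids from citrate that leaves the mitochondria. ATP citrate lyase (Acly) cleaves this citrate to acetyl-CoA, acetyl-CoA carboxylases make malonyl-CoA, and fatty acid synthase (Fasn) joins these units into palmitate with NADPH as the reductant. Elongases and desaturases then lengthen and unsaturate the chain, and acyltransferases, lipins and the Dgat enzymes attach the acyl chains to glycerol to form triglyceride. Insulin acts on these genes through the transcription factor SREBP-1c, coded by Srebf1, and carbohydrate through ChREBP, coded by Mlxipl.

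The genes described here are 32 named genes of fatty acid and triglyceride synthesis, of the 24910 genes or unmatched identifiers in the expression table. They were chosen by name, and the FPKM of a gene, a level scaled to transcript length and library size, was summed over its RefSeq transcripts. All 32 were in the table, with 44 transcripts. A gene entered the comparisons when 2 or more of the 6 mice reached an FPKM of 1, which 27 members did. Of these 27, 23 reached that level in both mice of every group, and Scd2, the desaturase called below, in both mice of Control only.

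RNA-seq and FAIRE-seq, which recovers nucleosome-free DNA so that read-rich regions mark accessible chromatin, were performed on livers of male wild-type C57BL/6J mice. Control mice received standard chow for 28 weeks and had no surgery. Sham and VSG mice were given a high-fat diet, with 60 kcal% fat, from 8 weeks of age for 14 weeks before and 14 weeks after their operation. In VSG (vertical sleeve gastrectomy) about 80% of the stomach was removed, whereas the Sham procedure applied pressure to the stomach without resection, and liquid diet was given for 4 days after surgery in both. Sham and VSG mice therefore differ from Control in diet and surgery together, and only Sham and VSG mice share both the diet and an operation. Each group held 2 mice, and the same livers gave the RNA and the FAIRE DNA. No feeding state or time of day at collection is given in the sources used here.

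Depth in reads is unknown for the FPKM table. The spacing of low values gave depths between 0.676 and 1.56 relative to Control mouse 1. An exact permutation test of 2 against 2 mice has a smallest p of 0.333, so single genes were compared with limma on log2(FPKM + 1) across all 9869 genes that passed the filter, at an FDR of 10%. Fold changes on this scale understate the change of genes with a low FPKM. An FPKM of 0 can be a failed estimate, since 6 of 82 ribosomal protein genes were listed at 0 in all mice, and 16% of the genes tested were listed at 0 in at least 1 mouse. Of genes with an FPKM of 1 or more in a mouse of the group, 11.1% differed at least 2-fold in FPKM + 1 between the Control mice, 23.5% between the Sham mice and 17.2% between the VSG mice, as did 3 of 26, 8 of 25 and 10 of 28 members in the same order. The liver genes Apoa1 and Ttr were abundant in all mice (6334 to 11117 and 1011 to 4143 FPKM). Of the further hepatocyte genes listed, Cps1 stood at 70.5 to 518 FPKM and Ass1 at 256 to 1309. Apob was listed at 0 in Sham mouse 1 and stood at 196 to 371 FPKM in the other mice. Of 6 adipocyte genes, Adipoq, Lep and Plin1 stood at 0.022 FPKM or less in each mouse and Retn was listed at 0 in all but Control mouse 1 (0.187 FPKM). The other two were detected in all mice, with Lipe at 6.64 to 11.5 FPKM and Cfd at 0.685 and 0.823 FPKM in Control, 9.74 and 0.251 in Sham and 20.5 and 4.62 in VSG mice, and the list summed to 8.00 to 9.31 FPKM in Control, 8.94 to 21.3 in Sham and 12.7 to 27.2 in VSG mice.

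Sequence upstream of the start sites is shown for members whose RNA differed most between Sham and VSG mice among those with an accessible promoter. The rule named Thrsp, Lpin2, Fads1, Pklr, Elovl3 and Dgat1, of which Thrsp, Lpin2 and Pklr have an entry in the promoter table. The Mlxipl upstream start, which lies in a site of variable accessibility, and Fasn were added after their values were seen. The sequences are from the RefSeq promoter table (GRCm38.p6), were each found once and unchanged in NCBIM37 (mm9), and are written 5′ to 3′ on the strand of the gene, without bases that the annotation places in an exon. Positions are in mm9: chr5:135565510-135565759 (plus strand) for Mlxipl, chr3:88940295-88940493 (plus) for Pklr, chr7:104566241-104566310 (minus) for Thrsp, chr17:71532622-71532871 (plus) for Lpin2 and chr11:120685862-120686111 (minus) for Fasn. Capitals mark the CCAAT box, bound by NF-Y, in either orientation, and the E-box CACGTG, the palindrome recognised by factors such as USF.
Mlxipl upstream start: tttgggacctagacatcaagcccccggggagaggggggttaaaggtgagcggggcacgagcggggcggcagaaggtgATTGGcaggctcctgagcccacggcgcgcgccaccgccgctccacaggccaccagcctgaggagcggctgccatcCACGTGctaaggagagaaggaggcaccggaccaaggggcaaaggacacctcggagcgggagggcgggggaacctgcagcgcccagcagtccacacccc
Pklr: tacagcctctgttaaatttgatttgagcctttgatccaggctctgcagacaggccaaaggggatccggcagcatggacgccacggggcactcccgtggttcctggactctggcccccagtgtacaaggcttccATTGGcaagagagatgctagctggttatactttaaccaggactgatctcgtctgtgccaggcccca
Thrsp: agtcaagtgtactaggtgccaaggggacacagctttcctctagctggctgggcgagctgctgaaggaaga
Lpin2: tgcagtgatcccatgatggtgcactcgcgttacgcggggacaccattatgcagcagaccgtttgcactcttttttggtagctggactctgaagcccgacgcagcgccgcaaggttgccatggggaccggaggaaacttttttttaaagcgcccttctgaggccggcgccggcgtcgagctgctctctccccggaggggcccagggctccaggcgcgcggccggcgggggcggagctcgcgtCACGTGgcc
Fasn: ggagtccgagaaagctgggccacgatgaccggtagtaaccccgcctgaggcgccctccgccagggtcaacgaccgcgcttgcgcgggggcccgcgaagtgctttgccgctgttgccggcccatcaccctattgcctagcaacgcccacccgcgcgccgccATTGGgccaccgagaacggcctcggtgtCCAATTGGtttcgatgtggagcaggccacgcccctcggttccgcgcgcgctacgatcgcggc
The Mlxipl stretch holds 1 inverted CCAAT box and 1 E-box, the Pklr stretch 1 inverted CCAAT box and the Lpin2 stretch 1 E-box. In Fasn, 3 CCAAT boxes were found, of which a forward and an inverted copy overlap. The 70 bases of Thrsp hold neither motif, but its full 250 bases, with exonic bases included, hold 2 CCAAT boxes. Another Lpin2 promoter, at chr17:71553744-71553993, is not printed. It holds 3 CCAAT boxes and overlapped a peak in all 3 lists. Within 250 bases upstream of a start site, counted with exonic bases included and on both strands, CCAAT was present in 19 of 37 member promoters (51.4%), from 18 of the 26 member genes in the table, against 33.8% of all 32851 promoters. The E-box was present in 5 of 37 (13.5%), against 6.02%. A sterol regulatory element, searched as TCACNCCAC, was found in 1 (2.7%), the downstream Mlxipl promoter, against 1.05%. A pair of exact CACGTG E-boxes 5 bases apart, one form of the element that binds ChREBP, was found in 0 of all promoters. That search therefore cannot set members apart. Pairs with other letters were not searched or marked, so the absence says nothing on ChREBP elements in the printed stretches. A direct repeat of AGGTCA with a 4-base gap was found in 0 member promoters (0.0152% of all). A match is a description of the letters only.

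Of 27 members, 7 (25.9%) stood below Control in both Sham and both VSG mice, against 9.16% of all genes tested. They were the desaturase genes Scd1 and Scd2, the elongase gene Elovl6, the lipin gene Lpin1, Acacb, Fasn and Me1. Their mean FPKM was 1.68-fold (Fasn) to 44.7-fold (Scd1) lower in Sham. Of these, Scd2 passed the test, in Sham mice. In both VSG mice, 8 members (29.6%) lay above both Sham mice, against 18.5% of all genes, without passing the test. They were Dgat1, Fads1, Thrsp, Pklr, Acly, Acacb, Scd2 and Agpat2. At an FDR of 10%, 1 of 27 members was lower in Sham than Control mice, Scd2, against 0.193% of all genes tested, and 0 were higher (0.0912%). Scd2 reached an FPKM of 1 in both mice of Control only, so it passed the filter through the group where it was highest. The share beside its call is therefore a description, not support. Between VSG and Sham mice 0 members were called in either direction (0.0304% of all genes higher and 0.0203% lower), with 2 of 27 at an unadjusted p under 0.05, Pklr and Dgat1, both higher in VSG (3.25% of all genes higher and 1.6% lower). Between VSG and Control mice 0 members were called (0.101% higher and 0.182% lower), with 5 of 27 lower (2.53% of all genes) and 1 higher (7.02%) at an unadjusted p under 0.05. For Sham against Control, 8 of 27 were lower (4.34%) and 2 higher (6.57%) at that level. In bulk liver RNA, fewer cells of a type and less RNA per cell cannot be told apart.

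**Figure D1:**
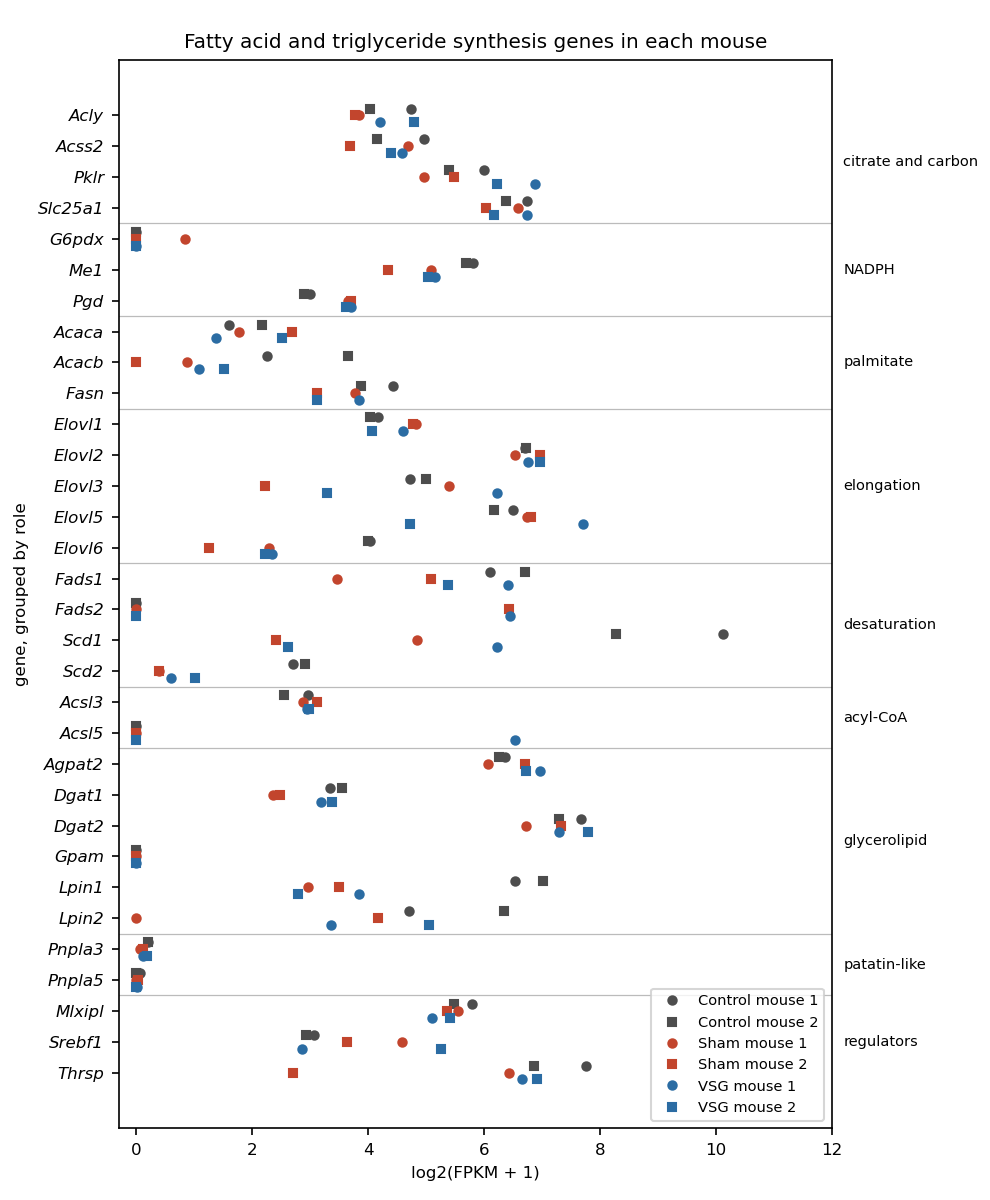
Expression of the 32 members in each mouse as log2(FPKM + 1), grouped by role, with Control in grey, Sham in red and VSG in blue and mouse 1 as circles and mouse 2 as squares. Scd1, Scd2, Elovl6, Lpin1, Acacb, Fasn and Me1 show all 4 mice on the high-fat diet left of both Control mice. Dgat1 shows both Sham mice left of the other 4.

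Acly and the tricarboxylate carrier Slc25a1 supply acetyl-CoA from mitochondrial citrate, Acss2 makes it from acetate, and Pklr is the liver pyruvate kinase of glycolysis. Acly had an FPKM of 25.7 and 15.3 in Control, 13.3 and 12.8 in Sham and 17.4 and 26.8 in VSG mice. Both Sham mice lay below all other mice, but the log2 fold change was −0.57 (SE 0.35) against Control and 0.69 (SE 0.35) for VSG against Sham, with adjusted p = 0.593 and 0.944. Pklr had an FPKM of 63.2 and 41.3 in Control, 30.2 and 43.9 in Sham and 117 and 74.1 in VSG mice. Both VSG mice were above all other mice. Its log2 fold change was 1.33 (SE 0.37, 95% interval 0.37 to 2.29) for VSG against Sham, with an unadjusted p of 0.0163 and an adjusted p of 0.932 over all genes. All of the Pklr signal was assigned to NM_001099779, with NM_013631 listed at 0 in each mouse. Exons of Pklr overlap exons of Hcn3 on the opposite strand by up to 711 bp, and whether strand was used in the quantification is not given in the sources used here. Slc25a1 ranged from 64.3 to 106 FPKM and Acss2 from 11.9 to 30.1, and the groups overlapped for both in all 3 comparisons.

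NADPH comes from malic enzyme (Me1) and, in the pentose phosphate pathway, from glucose-6-phosphate dehydrogenase (G6pdx) and 6-phosphogluconate dehydrogenase (Pgd). Me1 had an FPKM of 55.5 and 50.9 in Control, 33.0 and 19.3 in Sham and 34.6 and 31.9 in VSG mice. All 4 mice on the high-fat diet were below both Control mice, with a log2 fold change of −1.04 (SE 0.30, adjusted p = 0.366) in Sham and −0.66 (SE 0.30, adjusted p = 0.587) in VSG mice against Control. Pgd stood the other way, at 7.02 and 6.45 in Control, 11.6 and 12.1 in Sham and 12.1 and 11.3 FPKM in VSG mice. It was higher in all 4 mice on the high-fat diet, by a log2 fold change of 0.73 (SE 0.19, adjusted p = 0.352) in Sham and 0.71 (SE 0.19, adjusted p = 0.403) in VSG against Control. Between VSG and Sham the Pgd difference was −0.02 (95% interval −0.52 to 0.48). G6pdx was listed at 0 in 5 mice and at 0.800 FPKM in Sham mouse 1, and was not tested.

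Acaca and Acacb code acetyl-CoA carboxylases, of which the Acacb product sits at the mitochondrion where its malonyl-CoA inhibits fatty acid import. Acaca overlapped between the groups, with 2.04 and 3.50 FPKM in Control, 2.43 and 5.45 in Sham and 1.59 and 4.71 in VSG mice. Acacb had an FPKM of 3.79 and 11.6 in Control, 0.829 and 0 in Sham and 1.11 and 1.86 in VSG mice. Every Control mouse was above every VSG mouse, and every VSG mouse above every Sham mouse. Its log2 fold change against Control was −2.52 (SE 0.58, adjusted p = 0.290) in Sham and −1.66 (SE 0.58, adjusted p = 0.491) in VSG mice. Fasn had an FPKM of 20.7 and 13.7 in Control, 12.8 and 7.72 in Sham and 13.4 and 7.72 in VSG mice. Both groups on the high-fat diet lay below Control without overlap, and VSG and Sham differed by a log2 fold change of 0.03 (95% interval −1.002 to 1.07), a value of −0.06 after median-ratio scaling and −0.07 after quantile normalization. The intervals of Fasn against Control included 0 in both groups.

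The elongases differ in the chains they lengthen. Elovl6 extends palmitate to stearate, Elovl1 and Elovl3 act on long saturated and monounsaturated chains, and Elovl2 and Elovl5 on polyunsaturated ones. Elovl6 had an FPKM of 15.4 and 15.1 in Control, 3.87 and 1.39 in Sham and 4.05 and 3.68 in VSG mice. Control mice agreed within a small range and stood above all 4 others, with a log2 fold change of −2.25 (SE 0.38, adjusted p = 0.192) in Sham and −1.74 (SE 0.38, adjusted p = 0.334) in VSG mice. The Sham comparison passed the FDR without Sham mouse 1 (adjusted p = 0.0861) or Sham mouse 2 (adjusted p = 0.098), and over all 19 alternatives its adjusted p ran from 0.0861 to 0.717. Elovl1 had an FPKM of 17.1 and 15.4 in Control, 27.5 and 26.5 in Sham and 23.4 and 15.8 in VSG mice. Both Sham mice were above all others, with a log2 fold change of 0.70 (SE 0.26, adjusted p = 0.430) against Control and of −0.47 (SE 0.26, adjusted p = 0.944) for VSG against Sham. In Sham mouse 1 this sum was spread over 3 transcripts, at 11.6, 8.68 and 7.23 FPKM, while in Sham mouse 2 all 26.5 FPKM were assigned to NM_019422.

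Elovl2 differed little among the mice, between 92.1 and 125 FPKM. Elovl5 had an FPKM of 89.9 and 71.6 in Control, 106 and 112 in Sham and 208 and 25.5 in VSG mice. Elovl3 had 25.5 and 31.0 in Control, 41.2 and 3.69 in Sham and 74.0 and 8.85 FPKM in VSG mice. For both genes the VSG mice bracketed all the others or nearly so, and for Elovl3 mouse 2 of Sham and of VSG stood below both Control mice and mouse 1 above both. The standard error of the Elovl3 difference between VSG and Sham was 1.38 on a log2 fold change of 0.95.

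The desaturases place double bonds, at the delta-9 position for Scd1 and Scd2 and at the delta-5 and delta-6 positions of polyunsaturated chains for Fads1 and Fads2. Scd1, the main form of adult liver, occupies chr19:44468941-44482199 on the minus strand of mm9, and Scd2 chr19:44368166-44381354 on the plus strand. Scd1 had an FPKM of 1123 and 308 in Control, 27.7 and 4.32 in Sham and 74.1 and 5.12 in VSG mice. It was the most abundant member in both Control mice, and each mouse on the high-fat diet stood below each Control mouse. The mean FPKM was 44.7-fold lower in Sham and 18.1-fold lower in VSG than in Control mice. On the log2 scale the difference was −5.58 (SE 1.51, adjusted p = 0.356) for Sham and −4.78 (SE 1.51, adjusted p = 0.463) for VSG mice, so the largest difference of any member did not pass the test, with a wide spread between the mice of each group. Between VSG and Sham mice Scd1 overlapped, at 0.79 (95% interval −3.09 to 4.68).

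Scd2 had an FPKM of 5.50 and 6.49 in Control, 0.316 and 0.320 in Sham and 0.525 and 1.02 in VSG mice. It fell by 2.40 (SE 0.26, adjusted p = 0.0882) on the log2 scale from Control to Sham mice and stood at −1.99 (SE 0.26, adjusted p = 0.143) in VSG against Control. Both VSG mice were above both Sham mice, with a log2 fold change of 0.41 (SE 0.26, adjusted p = 0.944). The Scd2 call for Sham passed in 7 of 18 alternatives, with adjusted p between 0.0752 and 0.549, and in 0 of the 6 fits that left out a mouse (adjusted p 0.111 to 0.549), while its log2 fold change in those 6 stayed between −2.51 and −2.30. No stretch of 50 bases, the read length, of the Scd1 or Scd2 transcript examined occurs elsewhere in the genome.

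Fads1 had an FPKM of 67.5 and 104 in Control, 10.1 and 33.0 in Sham and 84.2 and 40.8 in VSG mice. Both Sham mice were below all others, with a log2 fold change of −2.13 (SE 0.66, adjusted p = 0.388) against Control and 1.62 (SE 0.66, adjusted p = 0.944) for VSG against Sham. Fads2 was listed at 0 in 4 mice, among them both Control mice, and at 85.0 FPKM in Sham mouse 2 and 86.8 in VSG mouse 1, so no fold is given.

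The 2 acyl-CoA synthetases, which activate fatty acids, gave little to compare. Acsl3 stood between 4.86 and 7.73 FPKM in all mice. Acsl5 was listed at 92.3 FPKM in VSG mouse 1 and at 0 in the other 5 mice, and was not tested.

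Triglyceride assembly runs from glycerol-3-phosphate acyltransferase (Gpam) through Agpat2, the lipin phosphatases and the diacylglycerol acyltransferases Dgat1 and Dgat2. Gpam, on chromosome 19, was listed at 0 in all 6 mice, although all 3 FAIRE lists held a peak at its start site. Agpat2 had an FPKM of 81.5 and 75.9 in Control, 66.0 and 103 in Sham and 124 and 106 in VSG mice. Both VSG mice were above all others, by a log2 fold change of 0.47 (SE 0.29, adjusted p = 0.944) against Sham.

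Lpin1, whose product is also a transcriptional coactivator, occupies chr12:16542475-16596576 on the minus strand. Its FPKM was 91.9 and 129 in Control, 6.80 and 10.3 in Sham and 13.4 and 5.95 in VSG mice. Each mouse on the high-fat diet stood far below both Control mice, with a mean 12.9-fold lower in Sham and 11.5-fold lower in VSG. The log2 fold change was −3.55 (SE 0.44, adjusted p = 0.121) in Sham and −3.46 (SE 0.44, adjusted p = 0.135) in VSG against Control. For Sham it passed in 1 of 19 alternatives, with a pseudocount of 5 (adjusted p = 0.099, range over the alternatives 0.099 to 0.568). VSG and Sham differed by 0.09 (95% interval −1.04 to 1.23). Lpin2 had an FPKM of 25.0 and 80.3 in Control, 0 and 17.0 in Sham and 9.29 and 32.4 in VSG mice. Both Sham mice lay below both Control mice, and the VSG mice spanned the gap.

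Dgat1 occupies chr15:76332445-76342381 on the minus strand. Its FPKM was 9.13 and 10.7 in Control, 4.14 and 4.58 in Sham and 8.08 and 9.45 in VSG mice. The Sham mice were below all others, and the VSG and Control mice overlapped. Against Control the log2 fold change in Sham was −1.02 (SE 0.21, adjusted p = 0.278), and from Sham to VSG it was 0.86 (SE 0.21, 95% interval 0.31 to 1.42), with an unadjusted p of 0.0101 and an adjusted p of 0.831. Dgat2 was far more abundant than Dgat1 per length, at 203 and 157 FPKM in Control, 105 and 160 in Sham and 157 and 221 in VSG mice. The groups overlapped for Dgat2 in each comparison.

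The patatin-like genes Pnpla3 and Pnpla5 were low in all mice. Pnpla3, a lipase and acyltransferase of lipid droplets that is induced by carbohydrate feeding, had 0.153 and 0.151 FPKM in Control, 0.0479 and 0.0848 in Sham and 0.0886 and 0.139 in VSG mice. Pnpla5 stood at 0.0473 FPKM or less. Neither was tested.

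Among the regulators, Mlxipl varied least, with 54.4 and 43.5 FPKM in Control, 45.8 and 40.3 in Sham and 33.3 and 41.5 in VSG mice. Both VSG mice were below both Control mice by a log2 fold change of −0.38 (SE 0.24, adjusted p = 0.678). Srebf1 had an FPKM of 7.42 and 6.64 in Control, 22.9 and 11.4 in Sham and 6.23 and 37.3 in VSG mice. Both Sham mice were above both Control mice, whereas the VSG mice lay on either side of all others. In Sham mouse 1, 11.4 of its 22.9 FPKM came from NM_001313979, which was listed at 0 in each other mouse, and the remaining transcript, NM_011480, stood at 11.5 and 11.4 FPKM in the Sham mice. Thrsp, a small protein that promotes fatty acid synthase activity, had an FPKM of 216 and 115 in Control, 85.9 and 5.56 in Sham and 99.9 and 120 in VSG mice. The Sham mice were below all others, with Sham mouse 2 far lower than Sham mouse 1. The log2 fold change was −2.73 (SE 1.23, adjusted p = 0.504) for Sham against Control and 2.21 (SE 1.23, adjusted p = 0.944) for VSG against Sham.

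**Figure D2:**
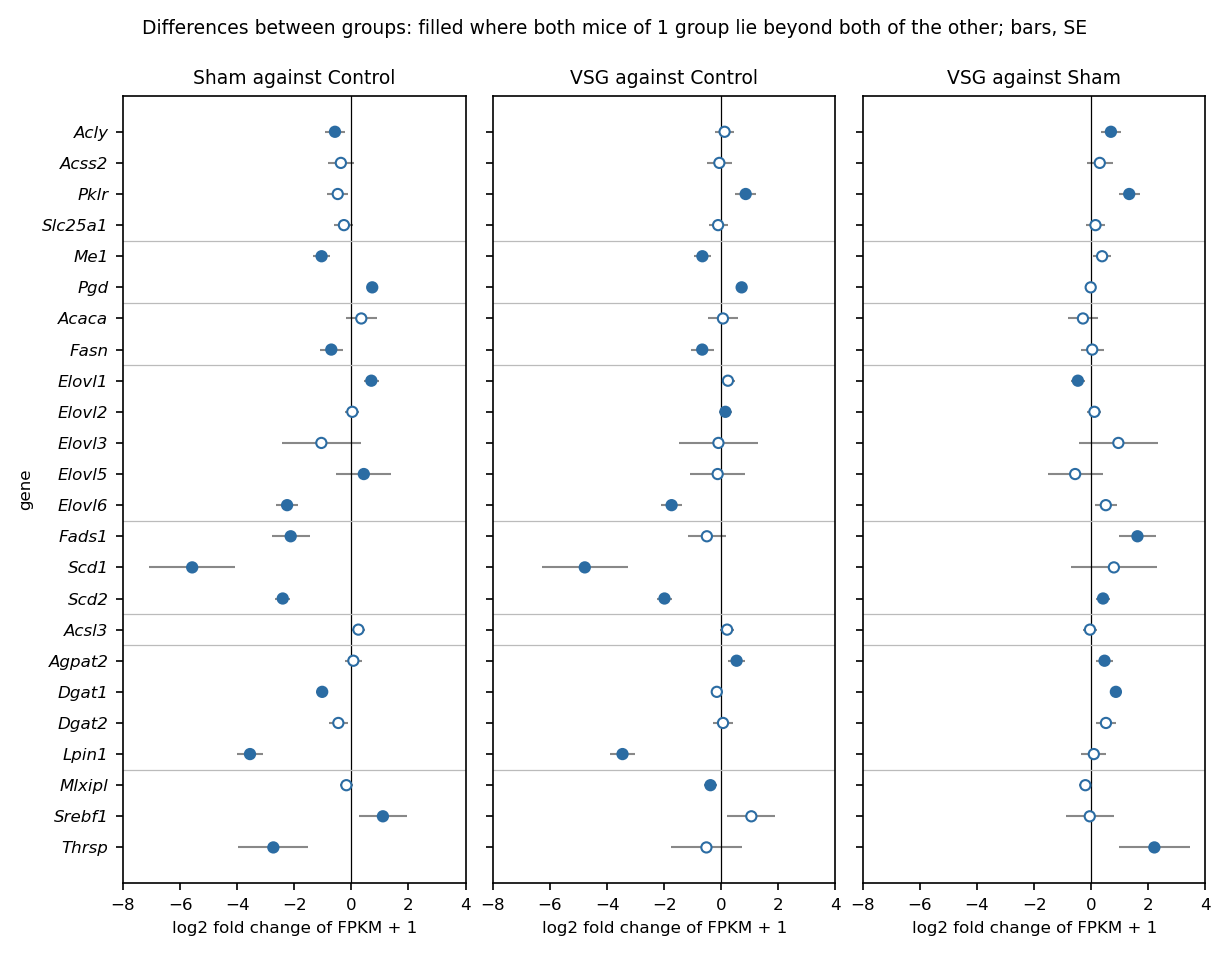
Log2 fold changes of FPKM + 1 with their standard errors (bars) for the 24 tested members not listed at 0 in any mouse, in the 3 comparisons, with filled points where both mice of 1 group lie beyond both mice of the other. Scd1, Lpin1, Scd2 and Elovl6 lie left of 0 in both comparisons with Control, and Pklr and Dgat1 are the points of the comparison of VSG with Sham whose 95% interval excludes 0.

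Counted over the members, 12 of 27 (44.4%) had both Sham mice below both Control mice, against 20.4% of all genes tested, and 4 (14.8%) had both above, against 25.4%. The 12 were Acly, Acacb, Fasn, Elovl6, Scd1, Scd2, Fads1, Me1, Thrsp, Lpin1, Lpin2 and Dgat1, and the 4 were Elovl1, Elovl5, Srebf1 and Pgd. Between VSG and Sham mice 8 of 27 (29.6%) were higher in both VSG mice, against 18.5%, and 1, Elovl1, was lower (3.7%, against 9.78%). The 8 were Acly, Acacb, Scd2, Fads1, Thrsp, Pklr, Agpat2 and Dgat1. Between VSG and Control mice 8 (29.6%) were lower, against 14.8%, and 4 (14.8%) higher, against 33.7%. A log2 change of −1 or below was found for 11 of 27 members in Sham against Control (6.98% of all genes), 6 in VSG against Control (4.82%) and 0 in VSG against Sham (3.85%). A log2 change of at least 1 was found for 2 (6.77% of all genes), 2 (6.93%) and 4 (6.08%) members in the same order. The 2 were Fads2 and Srebf1 in each case, with Fads2 listed at 0 in 4 mice. The last 4 were Fads1, Thrsp, Pklr and Lpin2. Lpin2 was listed at 0 in Sham mouse 1, and its log2 change was 0.046 without that mouse. In the same order, the change was above 0 for 9 members (33.3%, against 52.8% of all genes), 11 (40.7%, against 61.3%) and 20 (74.1%, against 59.6%). These counts are descriptions without a test, and the comparisons share their mice.

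**Figure D3:**
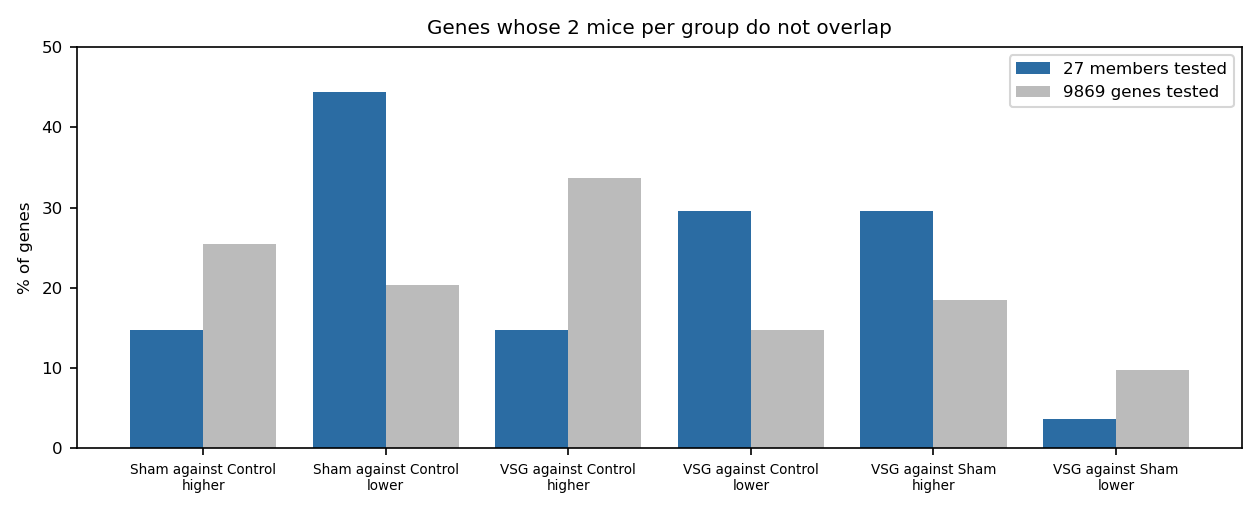
Percentage of genes for which both mice of the first group named lie above (higher) or below (lower) both mice of the second, for the 27 members tested (blue) and all 9869 genes tested (grey). The blue bar is highest for Sham lower than Control, at 44.4%, beside 20.4% of all genes.

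The median log2 change of the members was −0.48 for Sham against Control, where that of all genes was 0.04. It was 0.38 for VSG against Sham (all genes 0.08) and −0.11 for VSG against Control (all genes 0.13). Median-ratio scaling moved the median of all genes between VSG and Control to −0.01 and that of the members to −0.28. Single mice weighed on these values. Sham mouse 2 was the lowest of the 6 mice for 10 of 27 members and Sham mouse 1 for 8, and Control mouse 1 was the highest for 8. Without Sham mouse 2 the median of VSG against Sham was 0.17, and without Control mouse 1 that of Sham against Control was −0.22.

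By role, and over tested members listed at 0 in none of the mice, the median log2 change of the 3 desaturases Scd1, Scd2 and Fads1 was −2.40 for Sham against Control, −1.99 for VSG against Control and 0.79 for VSG against Sham. With Fads2, listed at 0 in 4 mice, these medians were −2.27, −1.25 and 0.60. Over 4 glycerolipid enzymes the medians were −0.74, −0.05 and 0.49 in the same order, and −1.02, −0.16 and 0.52 with Lpin2, which was listed at 0 in 1 mouse. Over the 5 elongases they were 0.03, −0.10 and 0.11, with Elovl6 and Elovl1 on opposite sides of 0 for Sham against Control.

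Other genes of the pathway were taken from a list of 78 regulators, precursor and NADPH enzymes, mitochondrial synthesis genes, elongation and desaturation genes and glycerolipid enzymes, of which 66 were tested. Scd3 and Scd4, desaturase genes of the same family as Scd1, were lower in Sham and in VSG than in Control mice at the FDR of 10%, and 0 of the 66 were called higher in any comparison or changed between VSG and Sham. Scd3 had an FPKM of 8.59 and 10.1 in Control, 0.125 and 0.149 in Sham and 0.429 and 0.156 in VSG mice. Its log2 fold change was −3.18 (SE 0.25, adjusted p = 0.0312) in Sham and −3.003 (SE 0.25, adjusted p = 0.0412) in VSG against Control. Scd4 had 4.49 and 5.23 FPKM in Control, 0.0636 and 0.156 in Sham and 0.217 and 0.0984 in VSG mice, with log2 fold changes of −2.40 (SE 0.24, adjusted p = 0.0716) and −2.34 (SE 0.24, adjusted p = 0.0808). Both genes reached an FPKM of 1 in Control only. All 4 Scd genes stood lower in each mouse on the high-fat diet than in each Control mouse.

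Gpat4, an endoplasmic reticulum acyltransferase of the same step as Gpam, had an FPKM of 41.1 and 60.1 in Control, 8.02 and 16.5 in Sham and 22.4 and 46.1 in VSG mice, with a log2 fold change of −2.02 (SE 0.50, adjusted p = 0.331) for Sham against Control and 1.40 (SE 0.50, adjusted p = 0.944) for VSG against Sham. Mid1ip1, a partner of Thrsp, had 13.1 and 9.05 FPKM in Control, 10.6 and 5.06 in Sham and 14.1 and 16.0 in VSG mice. Mecr, a reductase of mitochondrial fatty acid synthesis, stood at 14.7 and 15.8 in Control, 11.2 and 8.00 in Sham and 15.9 and 18.9 FPKM in VSG mice. Both VSG mice were above both Sham mice for these 3 genes, and the adjusted p was 0.944 for each. The same held for Cyb5r3, the reductase that passes electrons to the desaturases through cytochrome b5 (Cyb5a), at 65.8 and 77.3 FPKM in Sham and 92.6 and 86.0 in VSG mice, whereas Cyb5a itself and the mitochondrial synthesis gene Hsd17b8 overlapped. Mogat1, a monoacylglycerol acyltransferase, had an FPKM of 0.598 and 0.422 in Control and 5.99 and 1.17 in Sham mice and was listed at 0 in both VSG mice. Rxra, Mpc1 and Mpc2 were each listed at 0 in 1 mouse and above 64 FPKM in the other 5. Over all 66, 19 (28.8%) were lower in both Sham mice than in both Control mice and 8 (12.1%) higher, beside 20.4% and 25.4% of all genes, and 13 (19.7%) were higher in VSG than Sham, beside 18.5%.

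Genes of feeding state, the clock and other liver cell types are given beside these results as values that did not pass the FDR of 10% in the limma fit. Of 8 genes of feeding and fasting, 4 were lower in both Sham mice than in both Control mice (20.4% of all genes), with a median log2 change of −1.02. G6pc, the last enzyme of glucose release, is named after its values were seen. It stood at 144 and 272 FPKM in Control, 24.3 and 27.02 in Sham and 87.8 and 150 in VSG mice. Of 10 clock genes tested, 2 were higher and 3 lower in Sham than Control without overlap, shares near the 25.4% and 20.4% of all genes. In VSG against Control 2 were higher (33.7% of all genes) and 4 lower (14.8%). In VSG against Sham 3 were higher (18.5%) and 1 lower (9.78%). Kupffer cell markers summed to 19.1 to 28.3 FPKM in Control, 59.7 to 70.6 in Sham and 58.7 to 194 in VSG mice, with 5 of 7 markers higher than Control without overlap in Sham (25.4% of all genes) and 5 of 7 in VSG mice (33.7%), and Clec4f and Timd4 detected in every mouse. Neutrophil markers summed to 4.91 to 12.4, 41.5 to 45.5 and 16.4 to 21.9 FPKM, with S100a8 and S100a9 holding most of it. Stellate cell markers summed to 56.5 to 57.4, 20.0 to 31.6 and 57.0 to 80.5 FPKM, with Dcn holding most of it. Of 5 tested, 4 were lower in Sham than Control without overlap (20.4% of all genes) and 1, Col1a1, higher (25.4%). Endothelial markers summed to 11.8 to 32.8, 3.42 to 6.18 and 21.1 to 21.1 FPKM, with Clec4g the largest in each mouse. Of 4 tested, 3 were lower in Sham than Control without overlap (20.4% of all genes). Cholangiocyte markers summed to 30.7 to 32.7, 62.9 to 186 and 30.9 to 145 FPKM, with Spp1 holding most of it. Spp1 and Sox9, the 2 tested, were higher in Sham than Control without overlap (25.4% of all genes). The others, Krt19, Krt7 and Epcam, were too low to be tested and went the other way. Their mean FPKM was 0.796, 0.510 and 0.661 in Control and 0.456, 0.259 and 0.434 in Sham mice. For hepatocytes, 5 of 8 markers were used, and they summed to 13485 to 16842 FPKM in Control, 8775 to 13958 in Sham and 10987 to 15709 in VSG mice. Apoa1 held most of each sum. Of the 5, 2 were lower in Sham than Control without overlap, Cps1 and Ass1 (20.4% of all genes), and 0 higher (25.4%). Between VSG and Sham, 4 were higher without overlap (18.5%) and 0 lower (9.78%). The part of feeding state, time of day or cell makeup in the results for the members was not tested.

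The FAIRE lists pool the 2 mice of a group, so they give no value per mouse and no test. A peak lay within 1000 bp of an annotated start site for 29 of 32 members in each list, beside 89.1% of genes tested in the Control list, 88.8% in Sham and 90.1% in VSG. For 28 members all 3 lists held such a peak (86.6% of all genes). Elovl2 and Pnpla5 had none (8.18%). The peak at Me1 was in the Control list only (0.627% of all genes), at percentile 16.8 of signal in that list, and the peak at Scd2 was in the Sham and VSG lists only (1.13%). The Scd2 peaks stood at percentile 40.2 of the Sham list and 53.2 of the VSG list. The other combinations held 0 members: Sham only (0.617%), VSG only (0.952%), Control and Sham (0.492%), and Control and VSG (1.43%).

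Peak signal is given by its rank within a list, because the signal scale differs between lists. The Control list holds 42204 peaks, the Sham list 52881 and the VSG list 44539, and a longer list with more weak peaks raises the percentile of a given peak, so the place from the top is given too. Ranks set side by side are a description without replicates. The strongest promoter peak of Scd1 stood at percentile 76.7 in Control, 42.3 in Sham and 66.7 in VSG, which are places 9828, 30492 and 14812. At Lpin1 the percentiles were 71.9 in Control, 80.6 in Sham and 77.9 in VSG, with places 11847, 10239 and 9836, so that Sham stood highest by percentile and VSG by place. These Lpin1 ranks do not follow the same peak. The strongest peak lay 20 bp from the start site in Control and 21 bp in VSG, whereas in Sham it was a separate peak 911 bp away. At Elovl6 they were 75.9, 82.3 and 72.1, with places 10184, 9377 and 12408. Dgat1 and Pklr had promoter peaks between percentiles 91.8 and 97.5, and Acly at percentile 98.6 or above in each list.

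**Figure D4:**
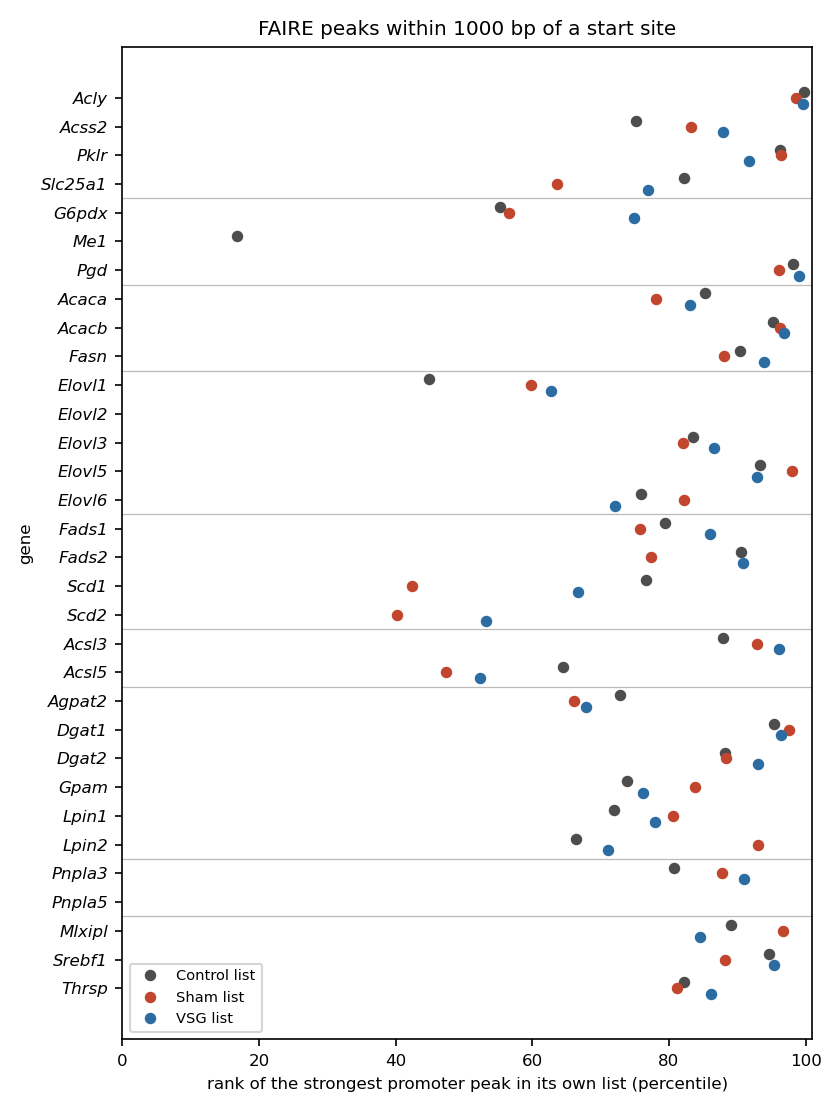
Rank, as a percentile of peak signal within its own list, of the strongest FAIRE peak within 1000 bp of a start site of each member, for the Control (grey), Sham (red) and VSG (blue) lists. The lists differ in length, and a missing point means that the list holds no such peak, as for Elovl2 and Pnpla5, and Scd1 shows the Sham point at 42.3 below Control at 76.7 and VSG at 66.7. The strongest peak of a gene can lie at a different place in each list, as at Acacb, Srebf1, Thrsp, Lpin1 and Lpin2.

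The deposited lists of variable sites hold 414 sites with more signal in VSG mice and 99 with more signal in Sham mice. Of the 32 members, 3 had a site of the former list within 100 kb of a start site (7.45% of all genes) and 0 a site of the latter (1.42%). The site nearest to Dgat1, chr15:76353585-76353778, lay 11204 bp from its start, in sequence outside genes, and 1026 bp from the start of Scrt1, with a peak in the VSG list only, at percentile 2.65. A site inside Acacb, chr5:114698112-114698359, overlapped an exon 72197 bp from a start site of the gene, with a peak in the VSG list only, at percentile 41.5.

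The third site, chr5:135565315-135566128, covers the upstream RefSeq start of Mlxipl at position 135565760, which lies 17001 bp before the first start of the gene in the annotation used for the peaks. The Mlxipl stretch printed above lies in this site, with its E-box and inverted CCAAT box. All 3 lists held a peak there, at percentile 77.6 in Control, 68.7 in Sham and 87.9 in VSG, or places 9436, 16562 and 5372 from the top. At the downstream start the percentiles were 89.1 in Control, 96.7 in Sham and 84.6 in VSG, or places 4606, 1740 and 6869. The expression table holds a single Mlxipl transcript, NM_021455, so RNA from the upstream start was not measured apart.

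**Figure D5:**
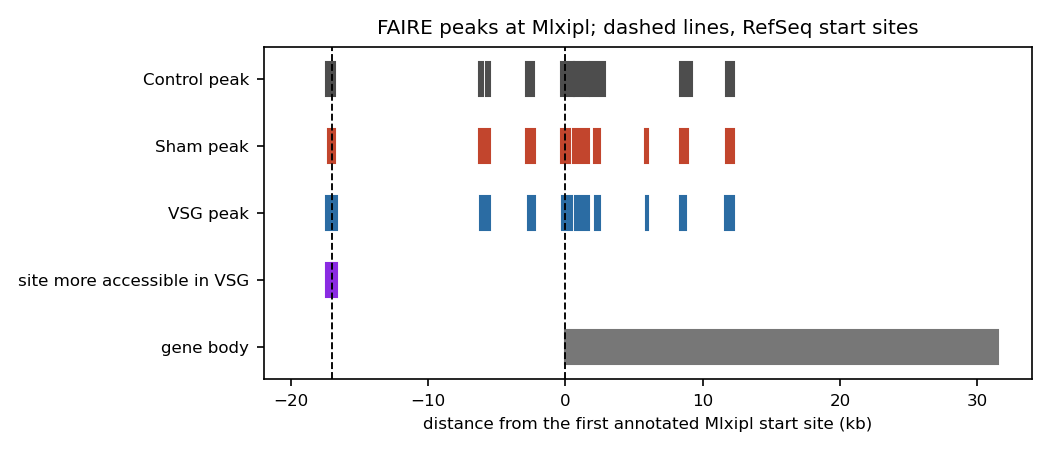
FAIRE peaks of the Control, Sham and VSG lists around Mlxipl by distance in kb from its first annotated start site, with the site listed as more accessible in VSG (purple) and the gene body (grey bar). Dashed lines mark RefSeq start sites, and the purple site covers the upstream one, 17001 bp before 0, where each of the 3 lists holds a peak.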

How the data were processed

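The members, their roles and the lists of related, marker and state genes were chosen with earlier results of these data known. RNA and FAIRE libraries came from the same livers, from 2 mice a group, and made up 12 samples. The methods of the study give depletion of ribosomal RNA, whereas the labels give poly(A) enrichment. FPKM per RefSeq transcript came from Cufflinks, run by the authors after alignment of 50-bp reads to mm9 with TopHat2. The signal of the FAIRE peaks is the authors' F-seq density, obtained after alignment with bowtie1, and peaks were retained by IDR over the 2 mice. The authors' deposited lists of variable sites hold positions only. The authors' DESeq2 tables on HTSeq counts, which hold mean counts, log2 fold changes with their errors, statistics and p-values, were not used.

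Transcripts were assigned to genes with the RefSeq table of GRCm38.p6, used for names only (34042 of 34933 rows matched). Summed values were fitted as log2(FPKM + 1) with limma 3.58.1 in R 4.3.3, with all 3 groups in the fit, a trend in the moderated variance and BH over all genes tested. The script was tested on simulated data. Start sites came from the GENCODE vM1 annotation of NCBIM37, copies of 50-base stretches from BLAST 2.17.0, and other steps from Python 3.11.15 with numpy 2.4.6, pandas 2.3.3, pysam 0.24.0 and matplotlib 3.10.9. Every member is named. Related genes are named where called, and otherwise as the pair per group of the list with the largest difference between VSG and Sham. Alternatives covered the pseudocount, filter, scaling, transcript choice, variance, weights, replicate block, leaving out each mouse, and the peak window, share and threshold. Treating values listed at 0 as missing and leaving out genes listed at 0 were chosen after the data were seen.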

Additional observations from a re-analysis of the deposited data

How the results depend on the processing

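The precision of each value is limited by 2 mice per group and by FPKM without read depth. Of single-member values under an alternative, 1436 kept their direction and side of the FDR, 11 lost and 5 gained a call, and 67 reversed. Peak counts stayed within 1.5 times of those given under each alternative run. For Sham against Control, the 1 member called became 0 with a pseudocount of 0.1, no filter, only the 2 groups in the fit, array weights or the replicate block. It became 2 with a pseudocount of 5. The count was also 0 with a mean FPKM of at least 5, where Scd2 fell below the filter and was not tested. This leaves 18 alternatives for Scd2, beside 19 for Elovl6 and Lpin1. For VSG against Control, 2 members, Scd2 and Lpin1, were called with array weights (adjusted p = 0.0815 and 0.0686). Over all 9869 genes, deviations of same-numbered mice from their group mean correlated weakly between groups (r between 0.039 and 0.118). Some members, such as Scd1 and Fasn, had mouse 1 above mouse 2 in each group. Others, such as Pklr and Agpat2, changed order between groups. An effect of replicate number on the members was not tested apart from the block fit. With the replicate block, the genes called among all tested went from 28 to 9 for Sham against Control. They went from 28 to 10 for VSG against Control and from 5 to 0 for VSG against Sham. The median member change for VSG against Sham was 0.21 with quantile normalization and 0.17 to 0.44 when a mouse was left out. For Sham against Control it was −0.78 to −0.22 when a mouse was left out, and for VSG against Control −0.28 with median-ratio scaling. Members whose groups did not overlap numbered 15 to 21, 17 to 25 and 15 to 21 with a mouse left out for VSG against Sham, Sham against Control and VSG against Control, since 1 mouse then stands against 2. The cause of the other changes was not tested. Log2 changes that reversed with median-ratio scaling were, for VSG against Sham, −0.056 for Fasn and −0.055 for Fads2, for Sham against Control, −0.039 for Elovl2 and −0.0015 for Agpat2, and for VSG against Control, −0.050 for Acly, −0.068 for Acaca, −0.028 for Elovl2 and −0.11 for Dgat2. With quantile normalization they were, for VSG against Sham, −0.065 for Fasn, −0.14 for Elovl2, −0.24 for Fads2, −0.069 for Lpin1 and −0.037 for Slc25a1, and for VSG against Control, −0.023 for Acly, −0.028 for Acaca and −0.097 for Dgat2. For VSG against Sham, Srebf1 was 0.025 with a pseudocount of 5 and 0.41 with the most abundant transcript only, which gave −0.35 for Lpin1. Leaving out a mouse turned the sign of 14 members for VSG against Sham, with Acaca from −0.86 to 0.28, Fasn −0.33 to 0.40, Elovl2 −0.10 to 0.32, Elovl3 −0.64 to 2.54, Elovl5 −2.05 to 0.93, Elovl6 −0.0033 to 1.02, Scd1 −1.01 to 2.60, Fads2 −3.21 to 3.24, Srebf1 −1.25 to 1.15, Lpin1 −0.43 to 0.61, Acss2 −0.20 to 0.80, Acsl3 −0.17 to 0.080, Pgd −0.064 to 0.028 and Slc25a1 −0.14 to 0.44. It turned 6 for Sham against Control, with Acaca from −0.11 to 0.80, Elovl2 −0.18 to 0.24, Elovl3 −2.64 to 0.53, Agpat2 −0.25 to 0.39, Acss2 −0.87 to 0.13 and Slc25a1 −0.54 to 0.017, and 11 for VSG against Control, with Acly from −0.24 to 0.47, Acaca −0.51 to 0.63, Elovl1 −0.040 to 0.50, Elovl3 −1.56 to 1.36, Elovl5 −1.62 to 1.36, Fads1 −1.02 to 0.0074, Srebf1 −0.15 to 2.26, Dgat2 −0.18 to 0.30, Acss2 −0.47 to 0.33, Acsl3 −0.0020 to 0.41 and Slc25a1 −0.40 to 0.18.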
